A study of Mus musculus with 9 samples.

Results

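Importin alpha proteins and importin beta 1 carry proteins from the cytoplasm into the nucleus, and 6 genes that encode them are described here in SV40-MES-13, an immortalised line from mouse kidney. The genes are Kpna1, Kpna2, Kpna3, Kpna4 and Kpna6, which encode importin alpha proteins, and Kpnb1, which encodes importin beta 1. Their Ensembl identifiers are ENSMUSG00000022905 (Kpna1), ENSMUSG00000018362 (Kpna2), ENSMUSG00000021929 (Kpna3), ENSMUSG00000027782 (Kpna4), ENSMUSG00000003731 (Kpna6) and ENSMUSG00000001440 (Kpnb1). They were taken by gene symbol from the 55357 genes of the expression table, with the knowledge that Kpna2 was very low in 1 library. That value is therefore described and not tested, as are all values of the 6 genes in that library. All 6 genes had a mean of at least 1 TPM (a relative abundance that takes transcript length into account) over the libraries. Kpna7, the remaining importin alpha gene of the mouse and one known from oocytes and early embryos, was listed at 0 TPM in every library.

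Poly(A) RNA was sequenced in 5 libraries of the line. The lentiviral shRNA sh5 against Drosha had 1 library, the shRNA sh7 against Drosha had 2, and the empty lentiviral vector (EV) had 2. The titles call the shRNA cells Drosha KO and the labels give the EV cells the genotype WT, whereas the protocols describe shRNA knockdown. All groups share the SV40 early region that immortalised the line, and large T antigen of SV40 is itself a classical importin alpha cargo. Separate infections or cultures are not stated for the replicates, and the p-values therefore reflect library-to-library spread that may be technical. The other 4 samples of the series, small RNA libraries, were not analysed here. The sh5 and sh7 comparisons share the EV libraries. They ask which transcripts depend on Drosha, the nuclear RNase that starts microRNA processing.

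In classical import an importin alpha binds the basic nuclear localization signal of a cargo and, through its own N-terminal domain, importin beta 1. Importin beta 1 takes the complex through the nuclear pore, where nucleoporins line the channel. In the nucleus RanGTP releases the cargo, and the export receptor encoded by Cse1l returns importin alpha to the cytoplasm. Importin alpha proteins differ in the cargo they prefer, and Kpna2 is the member best known from proliferating cells and from mouse embryonic stem cells.

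The sequences that define the knockdown groups are shown because the libraries of the 2 constructs differed at Kpna2. Both are Drosha target sequences as the labels give them, written 5′ to 3′ as DNA. No part of either is in capitals, since no site was searched for.
sh5: cctggaatatgtccacacttt
sh7: gtgtgcccattgaaataaa

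Promoters were at hand for 3 of the 6 genes, Kpna2, Kpnb1 and Kpna4, from RefSeq (GRCm38.p6), each with 250 bases before and 50 bases after the annotated start. They are shown because Kpna2 is known as a cell cycle gene and was set beside G2 and M genes here. Capitals mark 2 motifs, searched on both strands: CCAAT, bound by NF-Y, and TTTGAA, the cell cycle homology region of many G2 and M promoters. The 2 motifs share no bases in these windows.
Kpna2, chr11:106999476-106999775, minus strand: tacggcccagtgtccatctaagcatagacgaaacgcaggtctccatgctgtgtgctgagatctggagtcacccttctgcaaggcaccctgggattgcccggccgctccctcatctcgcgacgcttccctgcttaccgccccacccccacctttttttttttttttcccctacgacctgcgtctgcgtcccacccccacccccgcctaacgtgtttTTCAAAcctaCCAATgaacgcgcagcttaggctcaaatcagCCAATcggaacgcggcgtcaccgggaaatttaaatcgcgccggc
Kpnb1, chr11:97187843-97188142, minus strand: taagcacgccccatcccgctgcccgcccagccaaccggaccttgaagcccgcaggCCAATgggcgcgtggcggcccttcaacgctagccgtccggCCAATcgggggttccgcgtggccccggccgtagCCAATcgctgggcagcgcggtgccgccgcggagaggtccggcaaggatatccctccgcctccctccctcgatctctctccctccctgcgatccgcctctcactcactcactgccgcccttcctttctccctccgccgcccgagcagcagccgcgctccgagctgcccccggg
Kpna4, chr3:69127043-69127342, minus strand: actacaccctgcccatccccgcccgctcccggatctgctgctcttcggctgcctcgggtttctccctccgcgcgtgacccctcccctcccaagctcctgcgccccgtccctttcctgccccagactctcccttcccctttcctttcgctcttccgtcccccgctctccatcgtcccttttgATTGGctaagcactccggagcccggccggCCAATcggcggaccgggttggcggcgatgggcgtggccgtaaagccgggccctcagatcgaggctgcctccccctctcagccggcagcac

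The Kpna2 window held 1 match to TTTGAA, written TTCAAA on this strand and beginning 35 bases before the start, and 2 matches to CCAAT, the first beginning 25 bases before the start. The Kpnb1 window held 3 matches to CCAAT and the Kpna4 window 2, and neither held TTTGAA. Of 27025 mouse promoters of the same length, 37.9% held CCAAT, 18.1% held TTTGAA and 7.12% held both. A match describes the letters only.

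The libraries were first checked against their labels. Drosha mRNA was at 35.95 TPM in the sh5 library and at 8.39 and 14.9 TPM in the sh7 libraries. In the EV libraries it was at 60.0 and 56.4 TPM, so all 3 shRNA libraries lay below both EV libraries. For sh7 against EV the log2 difference of Drosha was -2.27, which did not pass limma's test adjusted over the 12728 tested genes (adjusted p = 0.109). For sh5 against EV its log2 difference was -0.68. A gene that does not pass this test is therefore not shown to be unchanged. The EV replicates correlated at r = 0.968 across the 12728 tested genes and the sh7 replicates at r = 0.983, while r was 0.982 between the sh5 library and EV replicate 2. The labels call the line mesangial, but of 10 mesangial and pericyte markers only Vim was above a mean of 1 TPM. The other 9 markers, Pdgfrb, Acta2, Des and Gata3 among them, were lower, and the highest value of any of them was that of Tagln in sh7 replicate 2 (2.301 TPM). The tubule epithelium marker Cdh16 was at 154 TPM in the sh5 library, 141 and 145 TPM in the sh7 libraries and 126 and 147 TPM in the EV libraries, and Epcam was at 64.7 TPM, at 53.1 and 55.4 TPM and at 26.9 and 52.4 TPM in the same groups. The other tubule markers were absent or low: Slc34a1, Umod and Aqp2 were listed at 0 TPM in every library, and Lrp2 had a mean of 1.55 TPM. Of the podocyte markers 1 of 5 was above a mean of 1 TPM, of the endothelial markers 0 of 5, of the tubule markers 3 of 6 and of the leukocyte markers 2 of 5. The line is therefore called by its name, and the part of other cell types in the results was not tested. TPM keep no read depth, so counting error is unknown.

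Importin beta 1 was the most abundant of the 6 transcripts and was slightly less abundant in all shRNA libraries than in EV. Kpnb1 was at 361 TPM in the sh5 library, 362 and 372 TPM in the sh7 libraries and 396 and 426 TPM in the EV libraries. All 3 shRNA libraries lay below both EV libraries. The means were 367 ± 7.59 TPM in sh7 and 411 ± 21.3 TPM in EV (SD, n = 2 each). For sh7 against EV the log2 difference was -0.16 (SE 0.0784), which did not pass limma's test adjusted over all 12728 genes (adjusted p = 0.406). In bulk RNA, fewer transcripts per cell and fewer cells with the transcript cannot be told apart.

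Kpna1 and Kpna6 form one subfamily of importin alpha, and both bind cargo for import with importin beta 1. Kpna6 was at 46.0 TPM in the sh5 library, 62.0 and 57.2 TPM in the sh7 libraries and 49.4 and 44.2 TPM in the EV libraries. Both sh7 libraries were above both EV libraries, and the sh5 library lay between the EV values. The log2 difference for sh7 was 0.34 (SE 0.106), with an unadjusted p of 0.0237 and an adjusted p of 0.297 by limma. Kpna1 was at 33.6 TPM in the sh5 library, 40.9 and 44.2 TPM in the sh7 libraries and 32.0 and 38.9 TPM in the EV libraries. Again the sh7 values were the higher ones, by a log2 difference of 0.26 (SE 0.132, limma adjusted p = 0.418), and the sh5 value fell inside the EV range. Under median-of-ratios scaling and under quantile normalization the Kpna6 values of sh7 stayed above those of EV, whereas those of Kpna1 overlapped.

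Kpna3 and Kpna4 form another subfamily, known for carrying the chromatin factor Rcc1 and the NF-kB subunit encoded by Rela. Kpna3 was at 75.0 TPM in the sh5 library, 87.3 and 95.9 TPM in the sh7 libraries and 82.7 and 91.8 TPM in the EV libraries. The sh5 library was the lowest of the 5, as it was for 36.3% of all tested genes, and the sh7 and EV ranges overlapped. Kpna4 was at 76.0 TPM in the sh5 library, 78.2 and 71.4 TPM in the sh7 libraries and 61.5 and 80.8 TPM in the EV libraries, so all groups overlapped. For sh7 against EV the log2 differences were 0.07 (SE 0.101, limma adjusted p = 0.770) for Kpna3 and 0.08 (SE 0.154, limma adjusted p = 0.824) for Kpna4, and both turned below 0 under median-of-ratios scaling (-0.03 and -0.02). Without EV replicate 1 they were -0.00452 and -0.11.

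**Figure D1:**
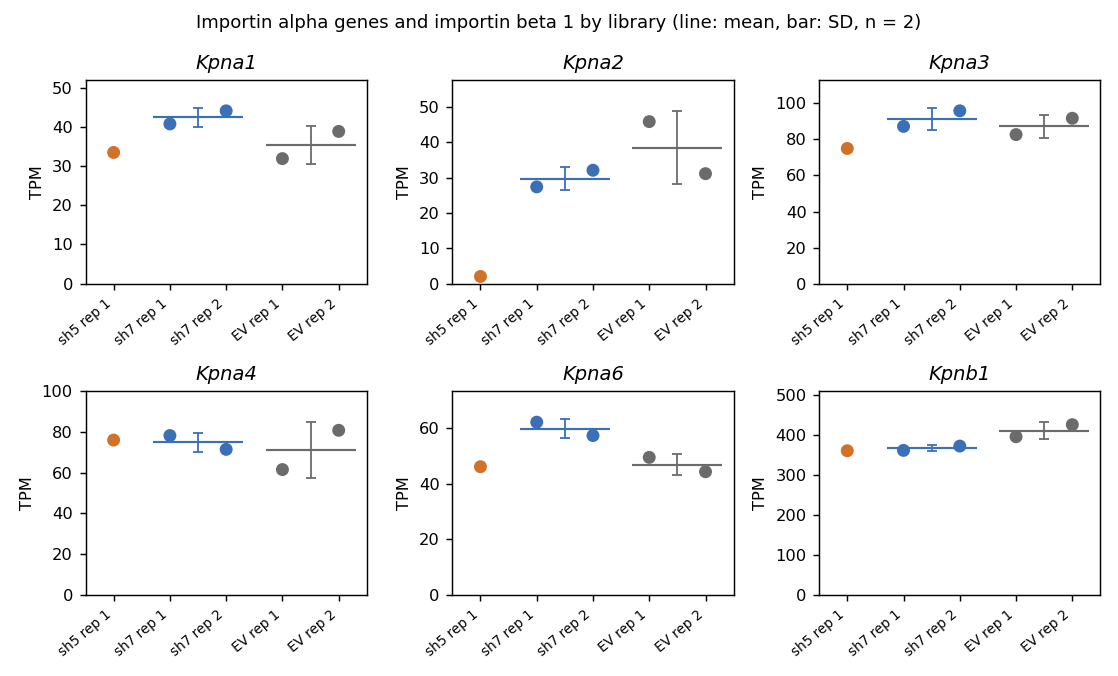
TPM of the 6 genes (vertical axes, each from 0) in the sh5 library, the 2 sh7 libraries and the 2 EV libraries (horizontal axes), with the mean as a line and the SD as a bar for the groups with n = 2. Kpna2 in the sh5 library, at 2.01 TPM, stands far below its other values, while the other 5 genes differ less between libraries.

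Kpna2, whose very low sh5 value was known when the genes were chosen, was at 2.01 TPM in the sh5 library, 27.4 and 32.1 TPM in the sh7 libraries and 45.9 and 31.1 TPM in the EV libraries. The sh5 value was 5.22% of the EV mean. On the log2(TPM + 1) scale it lay -3.69 from EV, where the EV libraries had an SD of 0.385, and only 2 of the 12728 tested genes had a lower difference. A log2 difference of -3 or lower was found for 0.0707% of tested genes. The sh7 and EV ranges of Kpna2 overlapped, since EV replicate 2 was below sh7 replicate 2. The log2 difference of sh7 from EV was -0.34, with values of -0.07 when EV replicate 1 was left out and -0.61 when EV replicate 2 was left out. Under median-of-ratios scaling and under quantile normalization both sh7 values lay below both EV values.

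**Figure D2:**
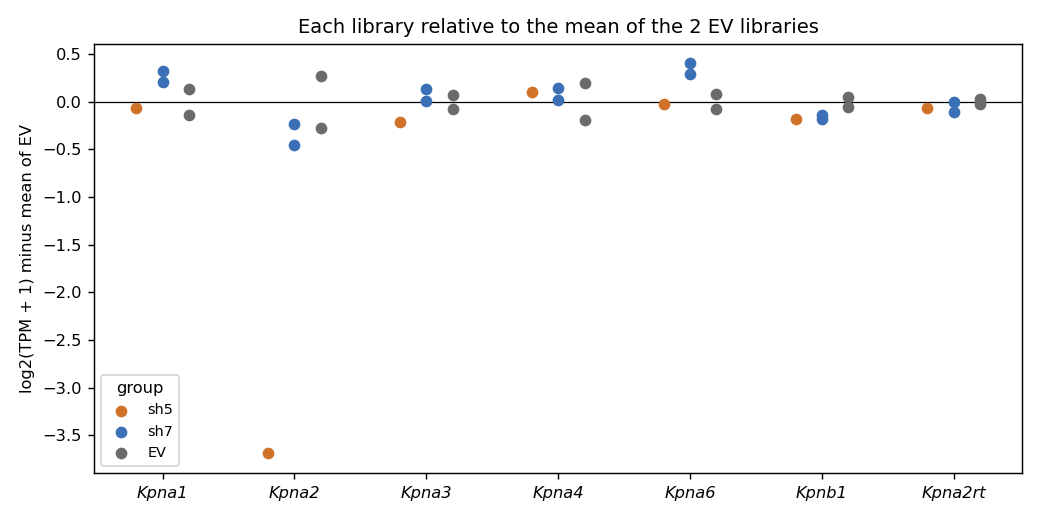
Difference of each library from the mean of the 2 EV libraries on the log2(TPM + 1) scale (vertical axis) for the 6 genes and the Kpna2 copy Kpna2rt (horizontal axis), with 1 point per library coloured by group. Kpna2 in sh5 is at -3.69, and Kpna2rt in sh5 is at -0.07.

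The table holds 2 further entries named after Kpna2, and one of them was more abundant than Kpna2 itself. Kpna2rt, whose symbol marks a retrotransposed copy of Kpna2 and which the reference table lists as the pseudogene Gm10184, was at 286 TPM in the sh5 library, 278 and 299.7 TPM in the sh7 libraries and 305 and 295 TPM in the EV libraries. Its sh5 value was 95.2% of the EV mean and its log2 difference was -0.07, against -3.69 for Kpna2. Under median-of-ratios scaling the sh5 value of Kpna2rt lay above both EV values, and under quantile normalization it lay below both, as in the deposited values. Kpna2-ps was at 0.777 TPM in the sh5 library, at 1.24 TPM and listed at 0 in the sh7 libraries, and at 0.591 and 0.443 TPM in the EV libraries. Kpna2rt was chosen by its name, and is no importin gene of the set above.

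A processed copy carries the exons of its parent, so Kpna2 and Kpna2rt can share reads, and the submitters' processing notes name kallisto, which divides shared reads between transcripts by estimated abundance. The reads behind each entry were not analysed here. Added together, Kpna2 and its 2 copies were at 289 TPM in the sh5 library, 307 and 332 TPM in the sh7 libraries and 352 and 327 TPM in the EV libraries. The sum in sh5 was the lowest of the 5, at 85.1% of the EV mean. Under median-of-ratios scaling it was 309.6 TPM in sh5, 290.04 and 309.7 TPM in sh7 and 349 and 336 TPM in EV. The sh5 value then lay within the sh7 range, just under its upper end. Under quantile normalization the sum in sh5 was again the lowest, at 289 TPM, beside 302 and 327 TPM in sh7 and 354 and 333 TPM in EV. As deposited, the sum lay -0.23 from EV in sh5 on the log2(TPM + 1) scale (SD of EV 0.0744) and -0.09 in sh7. Both the low value of Kpna2 alone and the small difference of the sum are therefore measured, and the value of Kpna2 alone is uncertain.

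Kpna2 itself made up 0.695% of the sum in the sh5 library, 8.92% and 9.67% in the sh7 libraries and 13.0% and 9.52% in the EV libraries. The sum was therefore mostly Kpna2rt in every library and can show little of a change in Kpna2 alone. In TPM, Kpna2 in sh5 lay -36.5 from its EV mean, Kpna2rt lay -14.4 from its own and the sum -50.6. Whether reads were divided differently in that library was not tested.

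**Figure D3:**
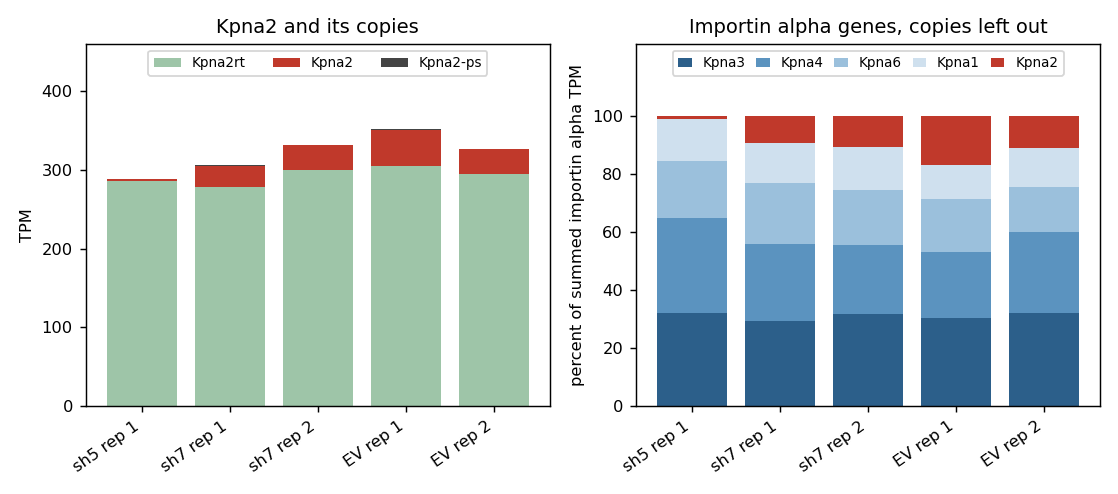
Left, stacked TPM of Kpna2rt, Kpna2 and Kpna2-ps by library; right, the share of each importin alpha gene in their summed TPM, in percent, with the copies left out. The red Kpna2 segment is nearly absent in sh5 (2.01 TPM, 0.863% of importin alpha), and the green Kpna2rt segment is of like height in all 5 libraries.

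The makeup of the importin alpha transcripts followed from these values. Kpna2 held 0.863% of the summed TPM of the 5 genes in the sh5 library, 9.26% and 10.7% in the sh7 libraries and 16.9% and 10.9% in the EV libraries. The sum itself was 233 TPM in the sh5 library, 296 and 301 TPM in the sh7 libraries and 271 and 287 TPM in the EV libraries. Without Kpna2 it was 231 TPM in the sh5 library, 268 and 269 TPM in the sh7 libraries and 226 and 256 TPM in the EV libraries, so the sh5 library then lay inside the EV range. Kpna4 held the largest share in sh5, 32.7%, against 32.2% for Kpna3, whereas Kpna3 was first in both sh7 libraries (29.5% and 31.9%) and both EV libraries (30.5% and 32.0%).

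Set against importin beta 1, the summed importin alpha TPM was 0.645 of Kpnb1 in the sh5 library, 0.818 and 0.808 in the sh7 libraries and 0.686 and 0.674 in the EV libraries. The sh7 libraries were above both EV libraries in this ratio. The place of the sh5 library depended on Kpna2. Without Kpna2 the ratio was 0.639 in the sh5 library, 0.742 and 0.722 in the sh7 libraries and 0.570 and 0.600 in the EV libraries, and with the copies added it was 1.44 in sh5, 1.59 and 1.61 in sh7 and 1.46 and 1.37 in EV. The sh5 library thus lay below both EV libraries with Kpna2 alone, above both without it and between them with the copies. A single scaling factor per library leaves the ratio as it is. With Kpna2rt and Kpna2-ps counted as Kpna2, Kpna2 would hold 55.6% of importin alpha TPM in the sh5 library, 53.3% and 55.2% in the sh7 libraries and 60.9% and 56.1% in the EV libraries.

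The order of levels was the same in both sh7 libraries. TPM are per transcript length, so levels can be set side by side. Kpna2 is ranked here without its copies, and its value alone is uncertain. With the copies counted as Kpna2, it would hold 53.3% and 55.2% of importin alpha TPM in the sh7 libraries. In sh7 the means ran from Kpnb1 (367 ± 7.59 TPM) through Kpna3 (91.6 ± 6.11), Kpna4 (74.8 ± 4.79), Kpna6 (59.6 ± 3.41) and Kpna1 (42.5 ± 2.37) to Kpna2 (29.7 ± 3.33; SD, n = 2), and no ranges of neighbours overlapped. In EV the means were 411 ± 21.3 TPM for Kpnb1, 87.2 ± 6.40 for Kpna3, 71.1 ± 13.6 for Kpna4, 46.8 ± 3.64 for Kpna6, 38.5 ± 10.4 for Kpna2 and 35.5 ± 4.92 for Kpna1 (SD, n = 2). There Kpna6 was above Kpna2 and Kpna1 in each library, and Kpna2 and Kpna1 changed places between the replicates. Kpnb1 was above 97.0% of tested genes in the EV mean and Kpna1, the lowest, above 63.3%. Kpna2 was above 65.6% of tested genes in the EV mean and above 12.1% in the sh5 library.

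By limma on all 12728 tested genes, 2 genes passed the threshold of an adjusted p of 0.05 for sh7 against EV, both higher (0.0157% of those tested), and none of the 6 was among them. For sh5 against EV 0 genes passed (0%), beside 1216 at an unadjusted p under 0.05 (9.55%), with the lone sh5 library assumed to vary like the other groups. In sh7, 2 of the 6 genes lay above both EV libraries (35.8% of all tested genes did) and 1 lay below (14.3%). In sh5, 3 of the 6 lay below both EV libraries, as did 43.7% of all tested genes, and 0 lay above, against 26.9%. Under median-of-ratios scaling 1 of the 6 lay above and 2 below in sh7, and 1 above and 3 below in sh5. These counts for sh5 rest on the values that chose the genes and are given as a description. Under median-of-ratios scaling 22.0% of genes were above and 25.5% below EV in sh7, and 38.2% above and 33.8% below in sh5.

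Across the rest of the nuclear transport machinery 58 genes were measured and all 58 passed the filter: 10 of the Ran cycle and importin alpha recycling, 12 other importins, 7 exportins and 29 nucleoporins. Of these, 0 passed limma's test over all genes for sh7 against EV, 0 for sh5 against EV and 0 for sh7 against sh5. Drosha did not pass for sh7 against EV either, so these counts do not show that the genes were unchanged. At an unadjusted p under 0.05 there were 4 for sh7 (14.5% of all tested genes) and 8 for sh5 (9.55% of all). The median log2 difference was 0.03 for sh7 and -0.05 for sh5, beside medians over all genes of 0.09 and -0.05. In sh5, 14 of the 58 lay above and 28 below both EV values, but under median-of-ratios scaling the counts were 25 and 19. In sh7 they were 17 above and 10 below, and 5 and 23 under that scaling. Over all tested genes 26.9% lay above and 43.7% below in sh5, and 35.8% and 14.3% in sh7. Under median-of-ratios scaling these shares were 38.2% and 33.8% in sh5 and 22.0% and 25.5% in sh7.

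In the Ran cycle, the small GTPase gene Ran was at 1019 TPM in the sh5 library, 829 and 817 TPM in the sh7 libraries and 952 and 911 TPM in the EV libraries. Rangrf, a Ran-binding factor, was at 94.8 TPM in sh5, 60.9 and 50.6 TPM in sh7 and 94.1 and 79.6 TPM in EV. The log2 differences for sh7 were -0.18 (SE 0.0732, limma adjusted p = 0.359) for Ran and -0.63 (SE 0.139, limma adjusted p = 0.252) for Rangrf. For sh7 against sh5 they were -0.31 (limma adjusted p = 0.174) and -0.76 (limma adjusted p = 0.142), so neither gene passed there. Ranbp1, a cofactor of GTP hydrolysis by Ran, had a log2 difference of -0.10 for sh7 and 0.05 for sh5. Ranbp2, the large cytoplasmic filament nucleoporin, was at 20.1 TPM in sh5, 28.3 and 34.8 TPM in sh7 and 33.0 and 32.3 TPM in EV.

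The factors that act on importin alpha itself differed little. Cse1l, which returns importin alpha to the cytoplasm, was at 164 TPM in the sh5 library, 179 and 172 TPM in the sh7 libraries and 172 and 171 TPM in the EV libraries. Nup50, a nucleoporin that helps release cargo from importin alpha, was at 128 TPM in sh5, 138 and 135 TPM in sh7 and 116 and 135 TPM in EV. The log2 differences for sh5 were -0.06 (SE 0.0911, limma adjusted p = 0.817) for Cse1l and 0.03 (SE 0.124, limma adjusted p = 0.942) for Nup50.

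Among the other importins, which bind cargo without importin alpha, Tnpo2 was at 65.3 TPM in sh5, 94.9 and 91.5 TPM in sh7 and 57.8 and 74.2 TPM in EV. Its log2 difference for sh7 was 0.50 (SE 0.140, limma adjusted p = 0.278). Tnpo1, its close relative, differed the other way, at 71.5 TPM in sh5, 71.1 and 72.2 TPM in sh7 and 84.1 and 80.7 TPM in EV. Ipo13 had log2 differences of 0.21 in sh5 and 0.17 in sh7, and Ipo8 of -0.23 and 0.14. In sh7, 4 of the 12 genes exceeded both EV values and 2 were under both, and in sh5 the counts were 3 and 6. Over all tested genes the shares were 35.8% and 14.3% in sh7 and 26.9% and 43.7% in sh5, and under median-of-ratios scaling the counts of the 12 were 1 and 5 in sh7 and 5 and 4 in sh5.

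The exportins carry cargo out with RanGTP, and 6 of the 7 lay below both EV libraries in the sh5 library, as did 43.7% of all tested genes. Under median-of-ratios scaling 4 of the 7 lay below, against 33.8% of all. Xpo1, the main protein exporter, was at 137 TPM in sh5, 197 and 181 TPM in sh7 and 187 and 167 TPM in EV. Xpo4 was at 18.0 TPM in sh5, 23.3 and 27.4 TPM in sh7 and 28.02 and 25.1 TPM in EV. Their log2 differences for sh5 were -0.36 (SE 0.118) and -0.54 (SE 0.166), both at a limma adjusted p of 0.501. Xpo5, which exports precursor microRNAs after Drosha has cut them, was at 62.7 TPM in sh5, 65.5 and 67.8 TPM in sh7 and 65.4 and 68.8 TPM in EV. In sh7 the log2 differences were -0.30 for Xpot, the transfer RNA exporter, 0.10 for Xpo1 and 0.16 for Ranbp17, and in sh5 it was -0.15 for Xpo7.

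Among nucleoporins the lowest difference in sh5 was that of Tpr, the nuclear basket protein, at 43.0 TPM in sh5, 105 and 128 TPM in sh7 and 115 and 96.5 TPM in EV. Ahctf1, which seeds pore assembly on chromatin, was at 34.7 TPM in sh5, 50.3 and 55.2 TPM in sh7 and 55.2 and 56.1 TPM in EV. The log2 differences for sh5 were -1.27 (SE 0.176, limma adjusted p = 0.376) for Tpr and -0.67 (SE 0.118, limma adjusted p = 0.384) for Ahctf1. Nup35 was on the higher side in sh5, at 98.8 TPM, with 89.5 and 84.4 TPM in sh7 and 73.9 and 78.5 TPM in EV. In sh7 the smallest unadjusted p values belonged to Nup188 (log2 0.24), Seh1l (0.23) and Nup98 (0.30), with limma adjusted p from 0.334 to 0.361. Tpr was the only one of the 58 at a log2 difference of -1 or lower in sh5, as were 2.07% of all tested genes.

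**Figure D4:**
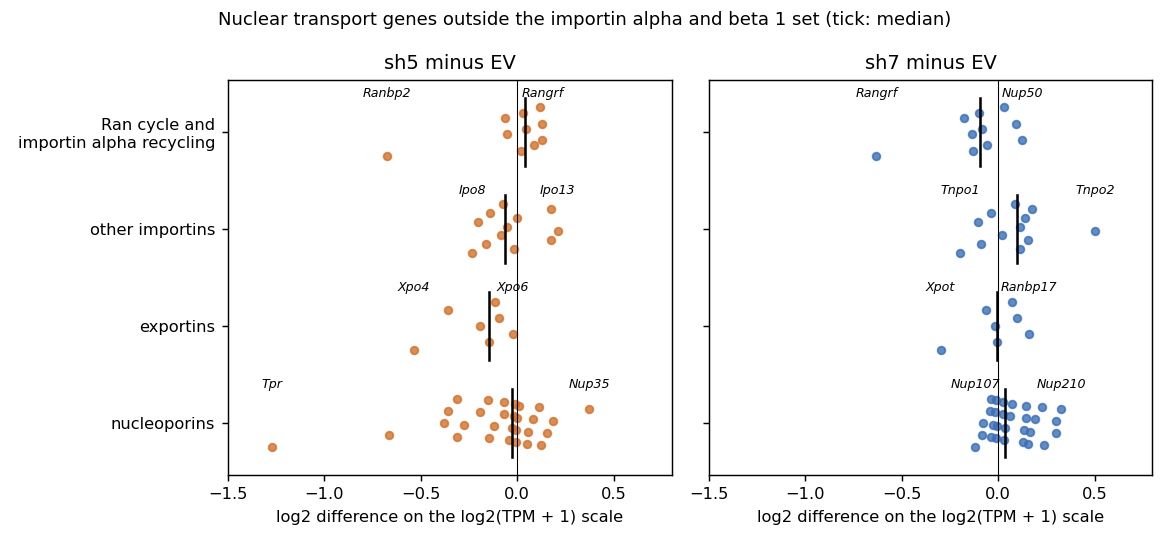
Log2 difference from EV on the log2(TPM + 1) scale (horizontal axes) of 58 nuclear transport genes in 4 classes (vertical axis), for sh5 on the left and sh7 on the right, with 1 point per gene, the median as a black tick and the lowest and highest gene named. Tpr in sh5, at -1.27, lies apart from the other nucleoporins.

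Known cargo of importin alpha was read in the same way, and 0 of 11 genes passed the test in either comparison, where 0.0157% of all tested genes passed for sh7 and 0% for sh5. The p65 gene Rela was at 91.6 TPM in sh5, 96.7 and 98.0 TPM in sh7 and 82.2 and 88.3 TPM in EV. Nfkb1 was at 81.8 TPM in sh5, 113 and 128 TPM in sh7 and 108 and 114 TPM in EV. Nbn and Brca1, DNA repair genes whose proteins are known as KPNA2 cargo in human cells, had log2 differences for sh5 of -0.54 (SE 0.156) and -0.47 (SE 0.131), both at a limma adjusted p of 0.485. In sh7 the log2 differences were 0.29 for the spindle gene Numa1 and 0.17 for Trp53.

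Because Kpna2 is transcribed with the cell cycle, 28 G2 and M genes were set beside it. In the sh5 library 23 of the 28 lay below both EV libraries, against 43.7% of all tested genes, and the median log2 difference was -0.33, beside -0.05 over all genes. Under median-of-ratios scaling 21 of the 28 lay below, against 33.8% of all tested genes. The centromere motor gene Cenpe was at 10.4 TPM in sh5, 27.9 and 32.8 TPM in sh7 and 34.7 and 26.7 TPM in EV. The condensin gene Smc2 was at 32.5 TPM in sh5, 58.8 and 62.9 TPM in sh7 and 65.4 and 58.3 TPM in EV, and Smc4 had a log2 difference of -1.19 in sh5. The list ran in sh5 from -1.46 (Cenpe) to 0.17 (Aurka), beside -3.69 for Kpna2, a value known when that gene was chosen. Summed with its copies, Kpna2 was at -0.23, but that sum was mostly Kpna2rt. Kpna2 made up 13.0% and 9.52% of it in the EV libraries, so the sum shows little of a change in Kpna2 alone. Its place inside the range of the list is thus no measure of Kpna2 alone. None of the 28 passed limma's test (smallest adjusted p for sh5 0.342, Smc4).

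In sh7 the same list had a median log2 difference of -0.01, beside 0.09 over all genes. In that comparison 5 of the 28 exceeded both EV values, against 35.8% of all tested genes, and 5 were under both, against 14.3%. Under median-of-ratios scaling the counts were 1 and 11, against 22.0% and 25.5%. Ckap2l, a spindle gene, was at 55.8 TPM in sh5, 43.8 and 44.0 TPM in sh7 and 82.8 and 74.1 TPM in EV. Its log2 difference in sh7 was -0.82 (SE 0.0977, limma adjusted p = 0.109), and those of Cdc20 and Ccnb1 were -0.29 and -0.25. The part of the cell cycle in the values of Kpna2 was not tested.

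**Figure D5:**
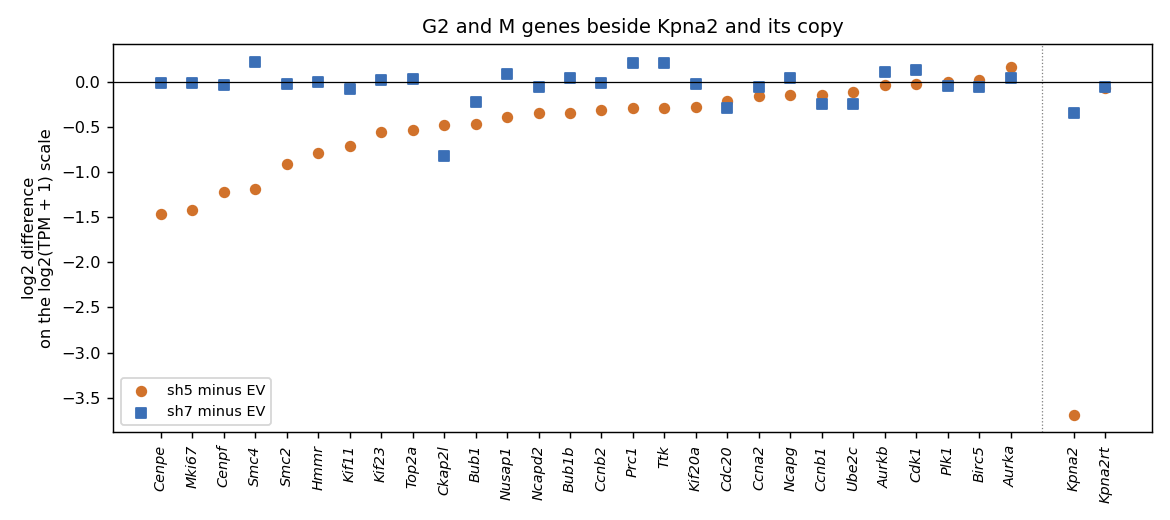
Log2 difference from EV on the log2(TPM + 1) scale (vertical axis) for 28 G2 and M genes sorted by their sh5 value, and for Kpna2 and Kpna2rt at the right (horizontal axis), with circles for sh5 and squares for sh7. Kpna2 in sh5, at -3.69, a value known when the gene was chosen, lies below every listed gene, and Kpna2rt lies near 0. The sum of Kpna2 and its copies, not drawn, was at -0.23 in sh5 and is mostly Kpna2rt.

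The genes whose pattern over the 5 libraries was most like that of Kpna2 were sought among 11221 tested genes without predicted models and pseudogenes, by the root mean square difference of log2(TPM + 1) centred on EV. The 5 nearest were the small nucleolar RNA loci Snord72 (0.345 log2 units) and Snora23 (0.497), ATP8 (0.499), the microRNA locus Mir1291 (0.599) and Hoxb5os (0.656). Snord72 was listed at 0 in sh5, and was at 6.55 and 17.3 TPM in sh7 and 17.1 and 11.05 TPM in EV. Snora23 and Mir1291 were likewise listed at 0 in sh5, and their EV means were low, at 8.28 and 5.04 TPM. The measure includes the sh5 value known when Kpna2 was chosen, so it favours genes that are low in that library. The likeness is therefore a description only. Hoxb5os was at 2.71 TPM in sh5, 24.3 and 42.2 TPM in sh7 and 24.4 and 24.6 TPM in EV.

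The genes next to Kpna2 in the reference order differed less from EV in sh5 than Kpna2, whose value was known when it was chosen. All of those named here but Nol11 lay below both EV libraries in sh5, as did 43.7% of all tested genes. On one side the nearest tested genes were Smurf2, Cep95 and Ddx5. Smurf2 was at 23.1 TPM in sh5, 27.9 and 28.5 TPM in sh7 and 24.8 and 24.1 TPM in EV. On the other side were Bptf, Nol11 and Pitpnc1, and Bptf was at 21.1 TPM in sh5, 34.1 and 41.5 TPM in sh7 and 46.1 and 38.9 TPM in EV. The log2 differences in sh5 were -0.97 for Bptf, -0.54 for Ddx5, -0.41 for Cep95, -0.11 for Pitpnc1, -0.08 for Smurf2 and 0.08 for Nol11, beside -3.69 for Kpna2.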

How the data were processed

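The authors deposited TPM for each Ensembl mouse gene in 5 poly(A) RNA libraries, and every library sums to 1000000. Per the submitters' processing notes kallisto 0.48.0 was used. Annotation, build and gene-level summing: not given in the sources used here. Of 22339 genes without a symbol in the table, 19991 were named from a reference table. Small RNA samples were not used.

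The 12728 genes whose mean reached 1 TPM were tested on log2(TPM + 1) in R 4.3.3 with limma 3.58.1 (lmFit, eBayes with a mean-variance trend), with 3 group means and 2 residual degrees of freedom. Tests were two-sided with Benjamini-Hochberg adjustment and a threshold of 0.05. Differences on this scale understate the change of low genes. The procedure was tested on simulated data. Where a gene was in the rule that chose the set, values are given without a test.

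The genes and lists were chosen with earlier results of these data known. All 6 genes, Kpna7, Drosha, Cse1l, Ran, Nup50 and Xpo5 were named, with up to 3 genes per list and comparison by smallest unadjusted p, the 5 genes most like Kpna2, 3 neighbours on each side and every entry named after Kpna2. The plot of G2 and M genes shows the whole list. Alternatives were pseudocounts 0.1 and 0.5, other filters, 3 other scalings, eBayes without trend, the replicate block and each library left out. The sum of Kpna2 with its copies was chosen after seeing the data. The coordinates printed are those of the promoter sequences (GRCm38.p6). The neighbours of Kpna2 were found by the gene starts of a reference gene annotation. Figures were drawn with matplotlib 3.10.9.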

Additional observations from a re-analysis of the deposited data

How the results depend on the processing

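None of the 5 tested genes of the set passed the threshold under any alternative run for sh7 against EV (smallest limma adjusted p 0.182). Kpna6 ranged from 0.24 to 0.42, Kpna1 from 0.12 to 0.40 and Kpnb1 from -0.27 to -0.11, with no change of sign over 14 alternatives. Kpna3 turned to -0.033 under median-of-ratios scaling and Kpna4 to -0.0194. With libraries left out, Kpna3 ranged from -0.00452 to 0.144 and Kpna4 from -0.111 to 0.277, both below 0 without EV replicate 1. No nuclear transport gene passed under any alternative for sh7 or sh5 (0 genes).

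Kpna2 in sh5 lay at -4.17 with a pseudocount of 0.1 and at -0.23 when summed with its copies, and between -3.42 and -3.96 without either EV library. Its share of importin alpha TPM in sh5 lay -13.0 percentage points from EV, and -2.92 with the copies counted as Kpna2. The values with the copies rest mostly on Kpna2rt and show little of a change in Kpna2 alone. In sh7 Kpna2 ranged from -0.61 to -0.07 over the libraries left out.

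Genes past the threshold for sh7 against EV numbered 2. The count was 1 with a pseudocount of 0.1 or 0.5, under median-of-ratios scaling and under quantile normalization. It was also 1 without the 20 most abundant genes and the genes whose symbols begin with mt-. Mitochondrial genes listed without that prefix, such as ATP8, were not matched by it. The count was 0 with no filter (3059 at an unadjusted p under 0.05), 4 at a mean of at least 5 TPM and 19 without trend. With libraries left out in turn it ranged from 0 to 315, with 315 without EV replicate 2, where EV replicate 1 is the lone control. For sh5 against EV it was 0, with 180 under no filter and 67 without EV replicate 2. For sh7 against sh5 it was 2, with 251 under no filter, 0 without trend and 0 to 9 with libraries left out. The cause was not tested. The median of all genes for sh7 against sh5 was 0.16 as deposited, -0.015 under median-of-ratios scaling and -0.029 under quantile normalization.

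With the replicate block 0 genes passed for sh7 against EV (1594 at an unadjusted p under 0.05) and 0 for sh7 against sh5 (1859). The difference between the EV replicates and that between the sh7 replicates did not correlate (r = -0.0158 over 12728 genes). The sh5 library does not enter this value, and a shared culture or batch cannot be judged from it. Read depth is unknown in TPM, so no counting error was derived.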
